A study of Mus musculus with 38 samples.

Results

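The enzymes that set, copy and remove DNA methylation were followed in testes of young mice over 6 strains and 2 ages. They were 8 genes, Dnmt1, Uhrf1, Dnmt3a, Dnmt3b, Dnmt3l, Tet1, Tet2 and Tet3, taken as every probe set that the array annotation gives to 1 of these symbols alone. This gave 20 of the 45101 probe sets, for 8 of the 18194 genes that had a probe set of their own. Males of an X chromosome substitution strain between mouse subspecies are sterile, and the arrays were made to find what differs in their testes before meiosis. All 38 arrays were whole-testis RNA of single males at 5 or 7 days post partum (dpp), with 3 males in each group except F1 at 7 dpp, which had 8. B6 (C57BL/6J) was the control and MSM the donor strain, whose whole genome differs from B6. B6-ChrXMSM carried nearly the whole X chromosome of MSM on a B6 background, B6-ChrXTMSM the distal part of it, and XS39-tel, measured at 5 dpp alone, a still more distal interval. F1 males, from B6-ChrXTMSM crossed with B6-Chr1MSM, carried the distal MSM X chromosome and 1 MSM copy of chromosome 1. None of the 8 genes lies on the X chromosome or chromosome 1, so outside MSM the strains were compared at B6 alleles of these genes.

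DNA methyltransferases add methyl groups to cytosine, mostly where C is followed by G. Dnmt1 copies the marks onto the new strand after replication, guided by Uhrf1, which binds hemimethylated DNA. Dnmt3a and Dnmt3b place new marks, helped in the germ line by the inactive relative Dnmt3l, and the Tet enzymes oxidise methylated cytosine as a step towards its removal. In the male germ line most marks are written in prospermatogonia before birth, and silencing of transposons by piRNAs, small RNAs bound by Piwi proteins, feeds into this writing.

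Values are log2 signals made by the robust multi-array average (RMA). A probe set entered a comparison when 1 group mean exceeded the log2 of 10, which is 3.32. It was said to rise or fall when its limma p, adjusted by the Benjamini-Hochberg method over every probe set tested, was under 0.05 and its levels also differed 1.5-fold or more. SE is the standard error of a log2 difference. The arrays had median log2 signals of 2.63 to 2.71. In each comparison 17 of the 20 probe sets were tested, or 18 in the term of MSM by age, for 6 of the 8 genes in most comparisons. Dnmt3l had 1 probe set and stayed below the filter in all 11 groups, with means of 1.72 to 2.08. Tet3, also with 1 probe set, exceeded the filter in MSM at 7 dpp alone (3.39 ± 0.22, SD, n = 3), and 1 of the 4 Tet1 probe sets, 1419897_at, never did. Levels of different probe sets cannot be set against each other on arrays, so every comparison below is within a probe set. In whole testis, fewer cells of a type and less RNA per cell cannot be told apart.

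B6-ChrXMSM and B6-ChrXTMSM males had less Dnmt3b RNA than B6 at 7 dpp. Both Dnmt3b probe sets and 1 of the 5 Dnmt3a probe sets were about 2-fold lower in both strains. Neither MSM nor F1 males had a called difference from B6 at that age. In B6 the same 3 probe sets rose between 5 and 7 dpp. No probe set of Dnmt1, Uhrf1, Tet1 or Tet2 rose or fell in these comparisons.

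The Dnmt3b probe set of highest mean, 1449052_a_at, read 7.38, 7.56 and 7.49 in the 3 B6 males of 7 dpp. It read 6.44, 6.30 and 6.32 in B6-ChrXMSM and 6.29, 6.71 and 6.33 in B6-ChrXTMSM. Every male of both substitution strains lay below every B6 male. The log2 fold change was -1.12 (SE 0.07, limma adjusted p = 2.6e-05) in B6-ChrXMSM and -1.03 (SE 0.11, limma adjusted p = 0.000567) in B6-ChrXTMSM. The other Dnmt3b probe set, 1418351_a_at, had B6 values of 5.57, 5.61 and 5.55, against 4.57, 4.34 and 4.54 in B6-ChrXMSM and 4.34, 4.78 and 4.56 in B6-ChrXTMSM. Its groups were also apart, and it fell by 1.09 (limma, adjusted p = 3.13e-05) and by 1.02 (limma, adjusted p = 0.000423) on the log2 scale. The suffix _a_at marks a probe set whose probes match several transcripts of a gene. Dnmt3b lies on chromosome 2 beside a near copy, Dnmt3c, and whether the Dnmt3b probes also read RNA of that copy was not examined.

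Dnmt3a gave a split picture. Its probe set 1423064_at had 5.28, 5.34 and 5.39 in B6 at 7 dpp, 4.43, 4.49 and 4.35 in B6-ChrXMSM, and 4.41, 4.58 and 4.34 in B6-ChrXTMSM, with no overlap between B6 and either strain. It fell by 0.92 (SE 0.06, limma adjusted p = 3.42e-05) and by 0.89 (SE 0.07, limma adjusted p = 0.000234). The probe set of highest mean, 1423063_at, read 7.74 to 7.78 in B6 and 7.75 to 7.97 in the 2 strains, with log2 fold changes of 0.09 and 0.13. The other 3 Dnmt3a probe sets differed from B6 by -0.26 to 0.12 in B6-ChrXMSM and by -0.40 to 0.21 in B6-ChrXTMSM. Over the 11 group means, 1423064_at followed Dnmt3b (Pearson r = 0.96) and 1423063_at did not (r = -0.52), where all points share arrays and strains. Which transcripts of Dnmt3a each probe set reads was not examined.

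**Figure D1:**
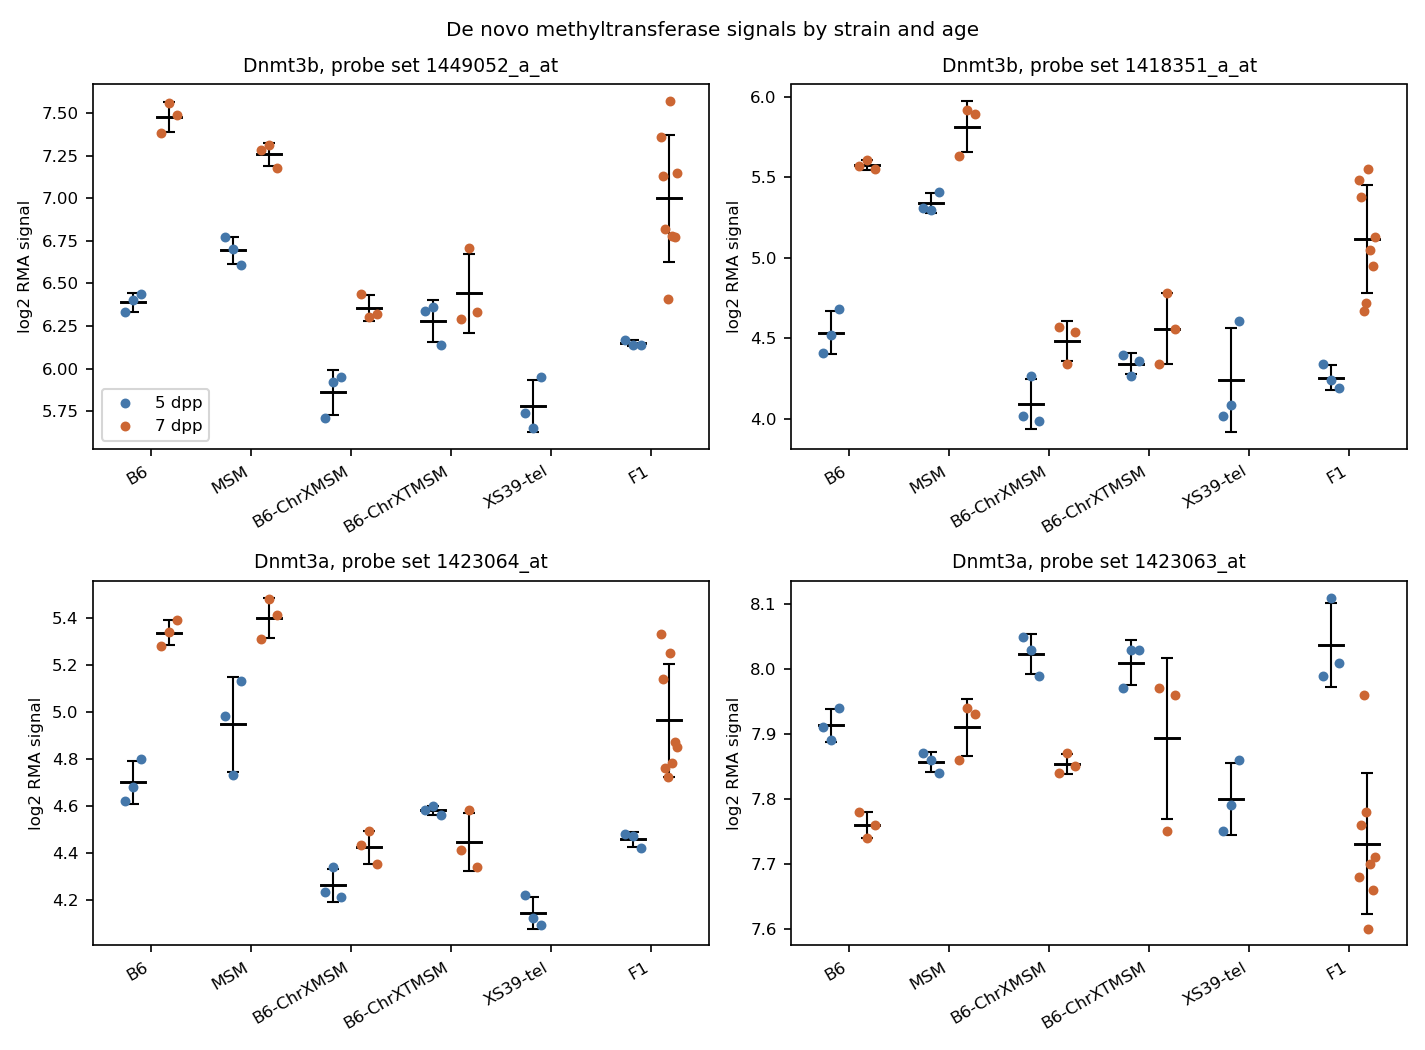
Log2 RMA signal of 4 probe sets of the de novo methyltransferases, by strain on the horizontal axis, with 1 point a male (blue 5 dpp, orange 7 dpp), the mean as a line and the SD as bars. Both Dnmt3b panels and Dnmt3a 1423064_at show B6 at 7 dpp above all B6-ChrXMSM and B6-ChrXTMSM males, while Dnmt3a 1423063_at spans 7.60 to 8.11 in all groups.

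Since probe sets of 2 genes fell together here, DNA upstream of both is shown beside that of Uhrf1, which did not pass in any comparison. The windows are the 250 bases before a RefSeq start in GRCm38.p6, on the plus strand: chr2:153649199-153649448 for Dnmt3b, chr12:3891494-3891743 for the most downstream of 3 Dnmt3a starts, and chr17:56303087-56303336 for the first of 2 Uhrf1 starts. Capitals mark GGGCGG (the GC box of Sp1), CACGTG (an E-box) and TTCCCGC (letters of an E2F site), searched on both strands, and no matches overlap in these windows.
Dnmt3b: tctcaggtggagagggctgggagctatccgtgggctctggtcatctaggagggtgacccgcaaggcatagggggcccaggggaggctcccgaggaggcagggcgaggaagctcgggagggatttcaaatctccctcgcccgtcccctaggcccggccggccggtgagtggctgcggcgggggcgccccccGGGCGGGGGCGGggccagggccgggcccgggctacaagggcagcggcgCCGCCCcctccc
Dnmt3a: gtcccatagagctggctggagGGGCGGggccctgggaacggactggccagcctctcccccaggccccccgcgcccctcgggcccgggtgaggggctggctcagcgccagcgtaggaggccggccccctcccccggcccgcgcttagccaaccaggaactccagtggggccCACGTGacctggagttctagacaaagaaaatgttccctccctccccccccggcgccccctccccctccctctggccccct
Uhrf1: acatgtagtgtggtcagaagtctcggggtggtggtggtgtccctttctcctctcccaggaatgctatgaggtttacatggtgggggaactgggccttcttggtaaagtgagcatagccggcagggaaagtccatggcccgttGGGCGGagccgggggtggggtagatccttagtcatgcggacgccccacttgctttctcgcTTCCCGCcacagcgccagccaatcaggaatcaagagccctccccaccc
Dnmt3b held 21 CG pairs and 3 GGGCGG matches, Dnmt3a 15 CG pairs with 1 GGGCGG and 1 CACGTG, and Uhrf1 10 CG pairs with 1 GGGCGG and 1 TTCCCGC. These are not the only starts: the windows of the other 2 Dnmt3a starts held 38 and 40 CG pairs with 5 and 4 GGGCGG, and that of the other Uhrf1 start 30 CG pairs with 3 GGGCGG, and which start is used in these testes was not examined. The downstream Dnmt3a start is shown because the shorter form of the enzyme is made from inside the gene. Of 32851 promoter windows of this length, 32.7% held GGGCGG, 6.02% CACGTG and 3.82% TTCCCGC, and the median window had 6 CG pairs. The matches are letters in a window, and methylation of these windows was not measured.

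Read against all probe sets, 3 of the 17 tested for these genes fell in B6-ChrXMSM at 7 dpp, where 4.61% of all tested fell and 6.09% moved either way. In B6-ChrXTMSM the count was also 3 of 17, with 4.5% of all falling and 5.73% moving either way. By the limma adjusted p alone, 7 of the 17 were under 0.05 in B6-ChrXMSM, beside 6861 of 17098 over all. In B6-ChrXTMSM it was 10 of 17, beside 7189 of 17105. The median log2 fold change over the 17 was -0.05 in B6-ChrXMSM and -0.11 in B6-ChrXTMSM, beside 0.01 and 0.02 over all probe sets. The same B6 males serve both comparisons, which are therefore not independent.

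The maintenance pair stayed within 1.5-fold of B6 in the substitution strains at 7 dpp. Dnmt1, read by 3 probe sets, had log2 fold changes of -0.17 to -0.09 in B6-ChrXMSM and -0.19 to -0.11 in B6-ChrXTMSM at 7 dpp. Uhrf1 had -0.08 and -0.05 in B6-ChrXMSM and -0.18 and -0.09 in B6-ChrXTMSM. These small differences could still be apart. For Uhrf1 1415810_at the B6-ChrXTMSM males had 7.23 to 7.26, against 7.36 to 7.53 in B6. For Dnmt1 1422946_a_at they had 6.96 to 7.06, against 7.10 to 7.30. The probe set of highest mean, Dnmt1 1435122_x_at, ran from 7.33 ± 0.12 in B6-ChrXMSM at 5 dpp to 7.69 ± 0.12 in MSM at 7 dpp (SD, n = 3 each), and neighbouring groups in that order overlapped throughout. Uhrf1 1415810_at ran from 7.04 ± 0.16 in MSM to 7.56 ± 0.26 in XS39-tel, both at 5 dpp, and its neighbours overlapped as well. The MSM males of 5 dpp (6.87 to 7.19) still all lay below the B6 males of 5 dpp (7.49 to 7.55). That log2 difference of -0.48 was under 1.5-fold. The other Uhrf1 probe set, 1415811_at, had means of 4.585 in MSM and 4.499 in B6 at 5 dpp.

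Tet1 and Tet2 differed little from B6 in the same testes, and their values were on the higher side. Tet1 1455425_at had 4.84 ± 0.04 in B6 at 7 dpp, 5.14 ± 0.05 in B6-ChrXMSM and 5.14 ± 0.05 in B6-ChrXTMSM (SD, n = 3 each). The difference of 0.30 in each had an adjusted p of 0.00414 and 0.00364 (limma) but stayed under 1.5-fold. The other Tet1 probe sets tested, 1419896_at and 1429448_s_at, gave 0.49 and 0.38 in B6-ChrXMSM, also under 1.5-fold with adjusted p of 0.00393 and 0.00458 (limma), and 0.07 and 0.14 in B6-ChrXTMSM. For 1419896_at the B6 mean of 3.29 was itself below the filter, with 1 of 3 males above it, so its differences are over a level that was not well measured. Tet2 1438781_at differed from B6 by 0.19 in B6-ChrXMSM and 0.24 in B6-ChrXTMSM, and Tet2 1455300_at by 0.09 and 0.07.

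**Figure D2:**
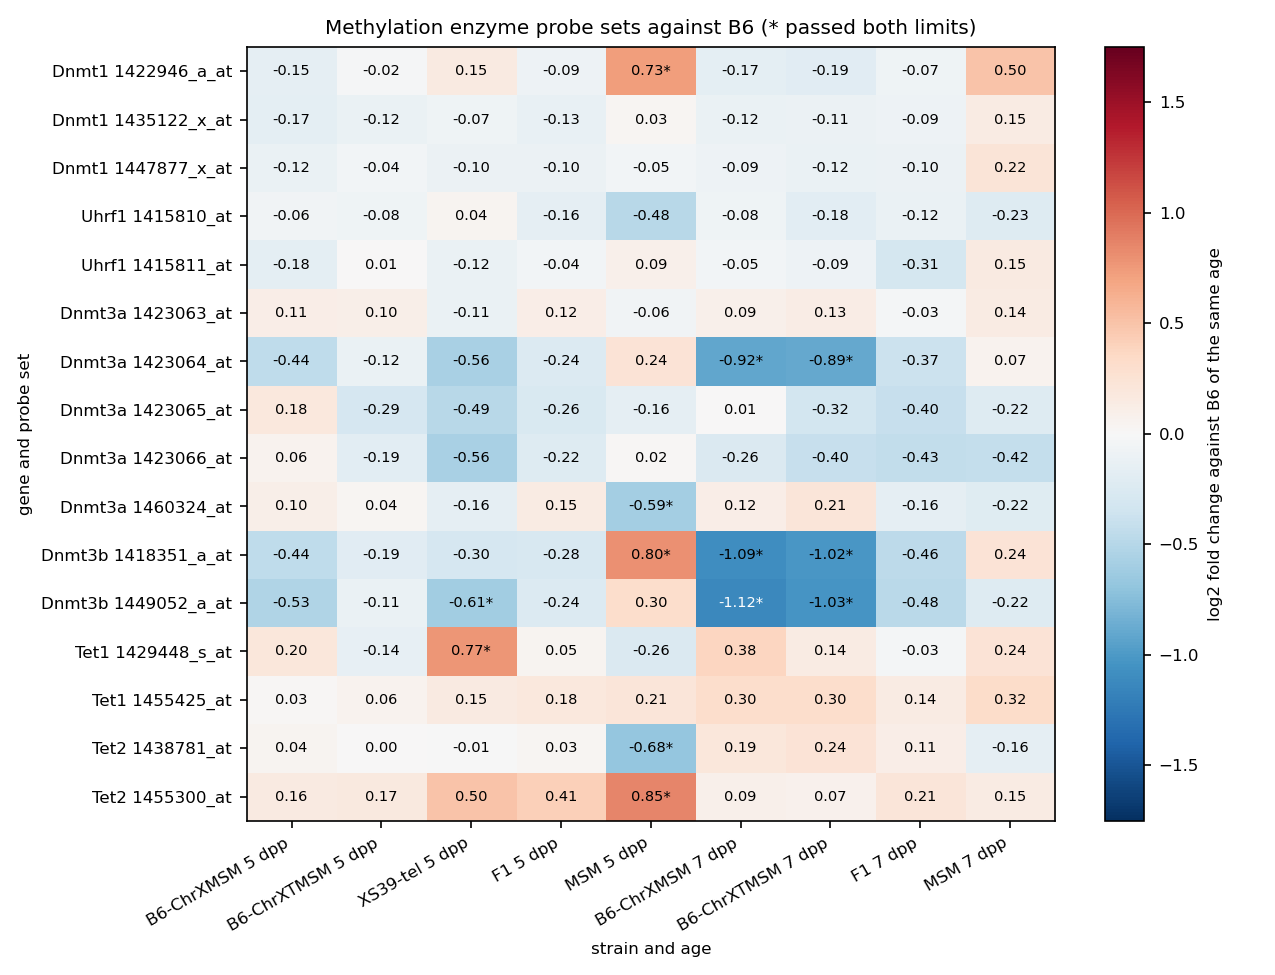
Log2 fold change against B6 of the same age (colour and printed value) for the 16 probe sets tested in all 9 comparisons, by gene and probe set on the vertical axis and strain and age on the horizontal axis. Asterisks mark values past both limits: in the substitution strains at 7 dpp they fall on the Dnmt3b rows and on Dnmt3a 1423064_at, and in MSM at 5 dpp on probe sets of Dnmt1, Dnmt3a, Dnmt3b and Tet2.

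At 5 dpp the same direction was present but smaller. In B6-ChrXMSM Dnmt3b 1449052_a_at read 5.71, 5.92 and 5.95, all below the B6 values of 6.33, 6.40 and 6.44. Its log2 fold change of -0.53 (SE 0.08, limma adjusted p = 0.0136) is a 1.44-fold difference and so just under the limit. Dnmt3a 1423064_at (-0.44, adjusted p = 0.0171) and Dnmt3b 1418351_a_at (-0.44, adjusted p = 0.0472, both limma) were in the same position. By limma 0 of the 17 probe sets thus rose or fell, with 6 at an unadjusted p under 0.05, and 1.68% of all probe sets were called. In B6-ChrXTMSM Dnmt3b 1449052_a_at read 6.34, 6.36 and 6.14, which overlaps B6, and again 0 of 17 were called by limma, with 3 at an unadjusted p under 0.05 and 0.307% of all called.

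XS39-tel had the lowest mean of Dnmt3b 1449052_a_at among all groups, 5.78 ± 0.15 (SD, n = 3), from values of 5.74, 5.65 and 5.95. It lay below all B6 males of 5 dpp, and the log2 fold change was -0.61 (SE 0.10, limma adjusted p = 0.0446). Tet1 1429448_s_at was higher, with 5.29, 5.27 and 4.94 against 4.41, 4.38 and 4.38 in B6 (log2 fold change 0.77, SE 0.11, limma adjusted p = 0.0376). The suffixes _s_at and _x_at mark probe sets whose probes can match more than 1 gene. These were the 2 of 17 called, beside 0.65% of all probe sets (0.105% higher and 0.544% lower), and both calls were lost when XS39-tel replicate 1 or 2, or any B6 male of 5 dpp, was left out. Without XS39-tel replicate 3 the count was 3. The other tested probe sets of Dnmt3b and Tet1 overlapped B6 of 5 dpp. Dnmt3b 1418351_a_at had a mean of 4.24 against 4.54 in B6. Tet1 1455425_at had 5.31 against 5.16, and Tet1 1419896_at had 3.496 against 3.565. Dnmt3a 1423064_at also had its lowest group mean in XS39-tel, 4.14 against 4.70 in B6. Dnmt3a 1423066_at had a log2 fold change of -0.56 (limma adjusted p = 0.0308), under 1.5-fold.

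Next, the change between 5 and 7 dpp was followed within each strain. In B6 both Dnmt3b probe sets rose about 2-fold. The probe set 1449052_a_at went from 6.33, 6.40 and 6.44 to 7.38, 7.56 and 7.49, a log2 fold change of 1.09 (SE 0.06, limma adjusted p = 3.8e-05). The other, 1418351_a_at, went from 4.41, 4.52 and 4.68 to 5.57, 5.61 and 5.55, by 1.04 (SE 0.07, limma adjusted p = 6.7e-05). Dnmt3a 1423064_at rose by 0.63 (SE 0.06, limma adjusted p = 0.000229). In each the ages were fully apart. These were 3 of 17 probe sets, where 4.15% of all rose and 8.33% moved either way, and the other 14 differed by -0.31 to 0.19. The median over the 17 was -0.04, beside 0.02 over all.

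In the substitution strains the rise was smaller and none passed. Dnmt3b 1449052_a_at changed by 0.49 (SE 0.08, limma adjusted p = 0.0116, under 1.5-fold) in B6-ChrXMSM and by 0.17 (SE 0.12, limma adjusted p = 0.398) in B6-ChrXTMSM. Dnmt3a 1423064_at changed by 0.16 and by -0.13. By limma 0 of 17 were called in either strain, with 4 and 3 at an unadjusted p under 0.05, beside 2.48% and 0.839% of all.

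The difference between the age changes was tested directly as a strain by age term. For B6-ChrXTMSM against B6 it was -0.92 for Dnmt3b 1449052_a_at (SE 0.15, adjusted p = 0.00233), -0.82 for 1418351_a_at (0.14, adjusted p = 0.00306) and -0.77 for Dnmt3a 1423064_at (0.09, adjusted p = 0.000774, all limma). These 3 of 17 compare with 3.04% of all probe sets below 0 and 5.19% either way, and they held without any single male. For B6-ChrXMSM the 2 Dnmt3b terms were -0.59 (adjusted p = 0.0148) and -0.65 (adjusted p = 0.0219, both limma), 2 of 17 beside 0.693% of all below 0 and 1.4% either way. These 2 calls were fragile. Leaving out 1 male lost that of 1449052_a_at in 7 of 12 cases and that of 1418351_a_at in 4 of 12, with both lost without B6 5 dpp replicate 1, B6-ChrXMSM 5 dpp replicate 2 or B6-ChrXMSM 7 dpp replicate 2. Both were also lost in 1 fit over all arrays (limma adjusted p = 0.322 and 0.281).

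**Figure D3:**
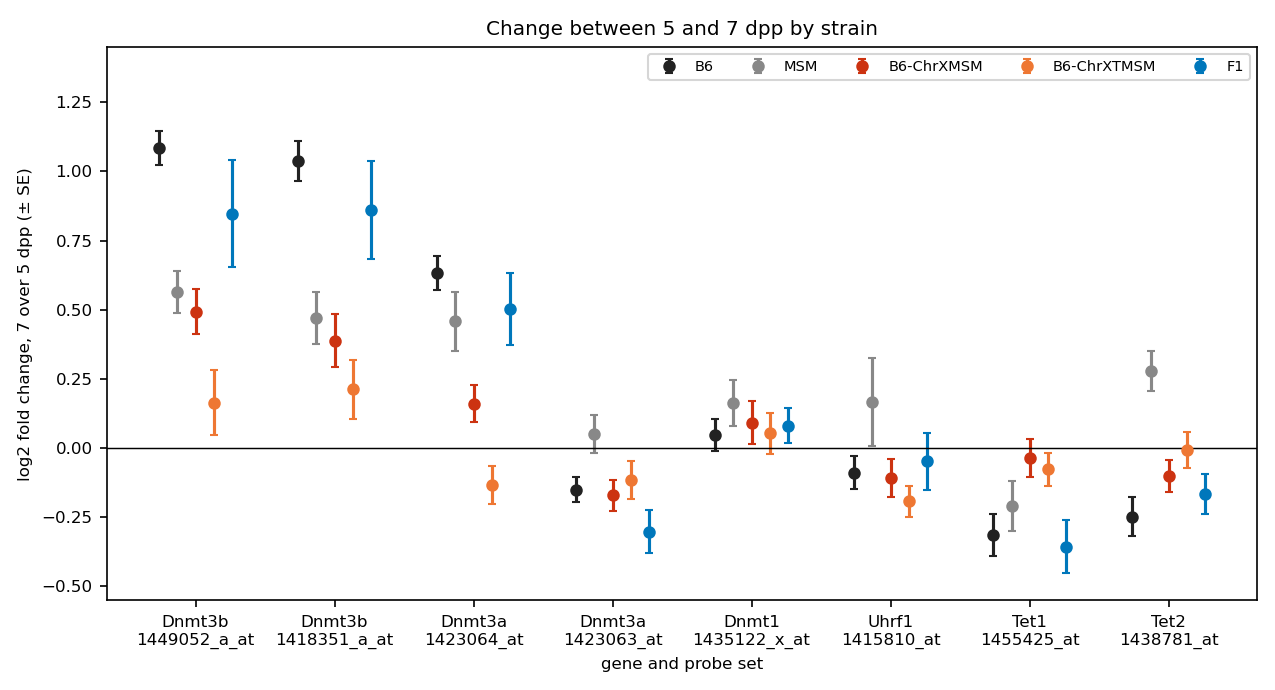
Log2 fold change of 7 over 5 dpp with its standard error, for 8 probe sets on the horizontal axis and 5 strains in colour. For Dnmt3b the B6 points lie above 1 and the B6-ChrXTMSM points at 0.17 and 0.21, while Dnmt1 1435122_x_at and Uhrf1 1415810_at lie near 0 in all 5 strains.

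In F1 males of 7 dpp, which add an MSM copy of chromosome 1, the means of both Dnmt3b probe sets and of Dnmt3a 1423064_at lay between those of B6 and B6-ChrXTMSM. This did not hold for every probe set, since the F1 means lay below both groups for the other 4 Dnmt3a probe sets (7.73 against 7.76 and 7.89 for 1423063_at) and above both for Tet2 1455300_at. Dnmt3b 1449052_a_at had a lowest value of 6.41, a median of 6.98 and a highest of 7.57 in the 8 males, a range of 1.16 on the log2 scale. The lowest male lay among the B6-ChrXTMSM values and the highest lay above the highest B6 male. Of the 8, 6 lay between the highest B6-ChrXTMSM male and the lowest B6 male. Dnmt3b 1418351_a_at ran from 4.67 over a median of 5.09 to 5.55, and Dnmt3a 1423064_at from 4.72 over 4.86 to 5.33, with all 8 males of the latter above every B6-ChrXTMSM male.

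As a group the F1 males were not separated from B6 or from B6-ChrXTMSM by the test for these probe sets. Against B6 the log2 fold change of Dnmt3b 1449052_a_at was -0.48 (SE 0.19, adjusted p = 0.146) and against B6-ChrXTMSM 0.55 (0.20, adjusted p = 0.154, both limma). By limma 0 of 17 probe sets were called in the first comparison, with 7 at an unadjusted p under 0.05 and 1.72% of all called. In the second it was also 0 of 17, with 4 at an unadjusted p under 0.05 and 0.325% of all called. At 5 dpp the F1 values of 6.17, 6.14 and 6.14 for 1449052_a_at lay below the 3 B6 males, at a log2 fold change of -0.24 (limma adjusted p = 0.123). No probe set passed at 5 dpp against B6 (0 of 17 by limma, 4 at an unadjusted p under 0.05, 0.54% of all called) or against B6-ChrXTMSM (0 of 17, 1 at an unadjusted p under 0.05, 0.0483% of all called).

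Dnmt3b rose in F1 testes with age. It gained 0.85 by 1449052_a_at (SE 0.19, adjusted p = 0.012) and 0.86 by 1418351_a_at (0.18, adjusted p = 0.00787, both limma), 2 of 17 where 2.96% of all rose and 5.58% moved either way. All 8 males of 7 dpp lay above the 3 of 5 dpp for both probe sets. Dnmt3a 1423064_at gained 0.50 (limma adjusted p = 0.0204), which is under 1.5-fold. Leaving out F1 5 dpp replicate 2 or 3 left 1 of the 2 calls. The F1 by age term against B6 called 0 of 17 by limma, with 0 at an unadjusted p under 0.05 as well, beside 0.0117% of all.

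Markers of germ cells in general and of differentiating spermatogonia were also lower in the 2 substitution strains at 7 dpp. Those of undifferentiated spermatogonia were mixed gene by gene but lower in their mean. The mean log2 signal of 7 general germ cell markers, such as Ddx4 and Dazl, was 6.36 to 6.48 in B6 males of 7 dpp, 4.98 to 5.47 in B6-ChrXMSM, 5.06 to 5.79 in B6-ChrXTMSM and 5.55 to 6.73 in F1. Of these 7, 6 fell in each substitution strain. Markers of differentiating spermatogonia, such as Kit and Stra8, averaged 5.19 to 5.31 in B6, 3.47 to 3.76 in B6-ChrXMSM, 3.61 to 4.02 in B6-ChrXTMSM and 4.06 to 5.11 in F1. Of the 8 listed, 7 were on the array and 6 were tested at 7 dpp, and all 6 fell in both substitution strains, while Prdm9 was below the filter in all groups. Of 8 tested markers of undifferentiated spermatogonia 3 fell in each strain, namely Zbtb16, Lin28a and Sall4. The medians of that list were -0.20 and -0.13, and its highest member, Etv5, had 0.54 and 0.43. Genes on the X chromosome, which carry MSM alleles in the substituted part, were not set apart in these lists. The part of these markers in the Dnmt3b result was not tested.

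The same lists differed between ages and among strains of 5 dpp. From 5 to 7 dpp in B6, 6 of 7 general germ cell markers and 6 of 6 markers of differentiating spermatogonia rose. In B6-ChrXMSM 4 of 6 and 4 of 5 rose. The general germ cell mean went from 3.97 to 5.24 there, and from 5.41 to 6.42 in B6. Dnmt3b did not pass between the ages in B6-ChrXMSM. In F1 6 of 6 and 5 of 5 rose, and in MSM 3 of 7 and 4 of 6. In B6-ChrXTMSM 0 of 6 and 0 of 5 were called by limma, with 0 at an unadjusted p under 0.05. At 5 dpp the general germ cell markers averaged 5.35 to 5.47 in B6, 3.39 to 4.53 in B6-ChrXMSM, 5.14 to 5.53 in B6-ChrXTMSM and 3.98 to 5.00 in XS39-tel. Among the F1 males of 7 dpp, replicate 4 had the lowest Dnmt3b 1449052_a_at and the lowest mean of both lists (5.55 and 4.06), and replicate 5 had the highest of all 3 (6.73 and 5.11 for the lists). Markers of Sertoli cells, the somatic cells of the tubule, averaged 5.85 to 6.00 in B6 at 7 dpp and 6.08 to 6.21 in the 2 substitution strains, and of 10 tested 1 rose in each, while 2 fell in B6-ChrXMSM and 1 in B6-ChrXTMSM.

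**Figure D4:**
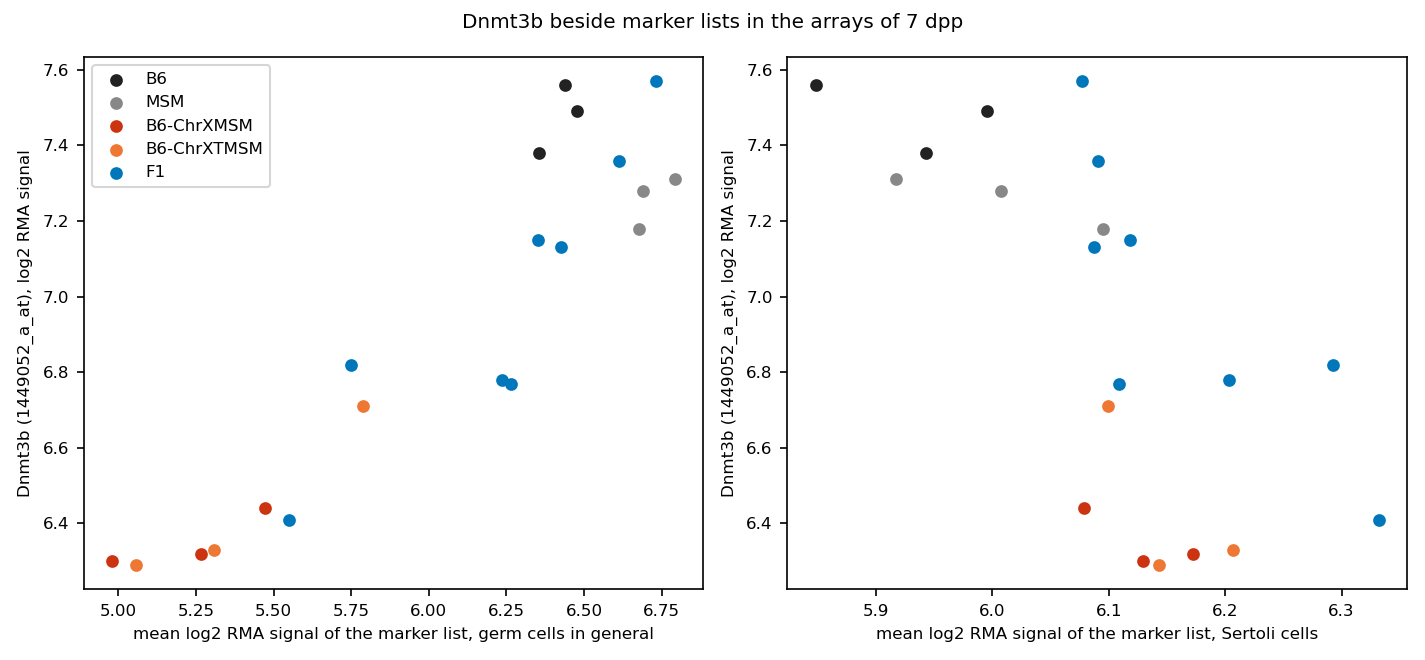
Dnmt3b 1449052_a_at (vertical axis, log2 RMA signal) in the 20 males of 7 dpp against the mean log2 RMA signal of 7 general germ cell markers (left) and of 10 Sertoli cell markers (right), coloured by strain. B6 and MSM males lie at the upper right of the left panel, and B6-ChrXMSM and B6-ChrXTMSM males at the lower left. F1 males there run from among the B6-ChrXTMSM males to 1 male above every B6 male on both axes.

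Markers of other tissues also differed. Of 3 adipose markers tested at 7 dpp, Fabp4 rose (2.51 in B6-ChrXMSM and 2.71 in B6-ChrXTMSM) and Dgat2 fell (-1.16 and -1.15). Of 4 Leydig cell markers 2 rose in B6-ChrXTMSM, Cyp11a1 by 0.72 and Hsd3b1 by 0.66, and 0 were called in B6-ChrXMSM by limma, with 1 at an unadjusted p under 0.05. Of 4 peritubular myoid markers 1 fell in B6-ChrXMSM and 0 were called in B6-ChrXTMSM by limma. In each strain 3 of these 4 had a limma adjusted p under 0.05. The part of these other tissues in the Dnmt3b result was not tested. Between the B6 ages the adipose markers averaged 3.87 to 6.34 in B6 males of 5 dpp and 3.29 to 3.55 at 7 dpp, and of 4 tested 3 fell and 1 rose. Of 10 Sertoli cell markers 2 rose and 2 fell between these ages, and 1 of 4 Leydig cell and 1 of 3 endothelial markers fell. The part of all these markers in the B6 age change was not tested. The Dnmt3b rise in B6 was 1.04 to 1.14 by 1449052_a_at when any single male was left out.

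Other genes around the enzymes were described by lists. Of 12 tested genes of piRNA-directed methylation, all 12 fell in B6-ChrXMSM and in B6-ChrXTMSM at 7 dpp, with median log2 fold changes of -1.24 and -1.12 beside 0.01 and 0.02 over all probe sets. Tdrd9, a Tudor domain helicase of the pathway, had -2.04 and -1.93, and Piwil2, a Piwi protein that carries piRNAs, had -1.54 and -1.44. Mov10l1, the helicase that starts piRNA processing, had -1.43 and -1.36, and Tex15, which links the pathway to methylation in fetal germ cells, had -1.50 and -1.42. In B6 all 12 rose between 5 and 7 dpp, with a median of 0.96 beside 0.02 over all probe sets.

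Germline genes whose promoters are kept methylated in body cells followed the same order. Of 12 tested, 11 fell in each substitution strain at 7 dpp, with medians of -1.38 and -1.28, and 11 rose with age in B6, with a median of 1.16. Sycp3, a protein of the meiotic chromosome axis, fell by 1.75 on the log2 scale in B6-ChrXMSM. Dazl, an RNA-binding protein of germ cells, fell by 1.38. The list includes the X-linked Taf7l, which was read at its MSM allele in the substitution strains. This list shares Mael, Asz1 and Tdrd1 with the piRNA list, and both share genes with the germ cell markers, so their counts are not separate evidence.

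The other lists had fewer calls. Of 14 cofactors of methylation, 2 fell in each strain at 7 dpp, namely Hells, a chromatin remodeller needed for normal methylation (-0.85 and -0.80), and Kdm1b, a histone demethylase needed for methylation of imprints in oocytes (-0.76 and -0.62). The list medians were -0.12 and -0.13. Whether Hells and Kdm1b RNA came from germ cells was not examined. Of 8 tested genes of methyl donor supply 1, Mthfd2, a mitochondrial enzyme of folate metabolism, fell in both (-0.63 and -0.64). By limma 0 of 8 readers of methylated DNA were called in B6-ChrXMSM, where 1 had an unadjusted p under 0.05, and 0 of 8 in B6-ChrXTMSM, likewise with 1. For the removal of oxidised bases it was 0 of 8 in each by limma, with 4 and 5 at an unadjusted p under 0.05.

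MSM, the donor strain, differed from B6 across much of the array. The count among these genes at 5 dpp was near the share over all probe sets. At 5 dpp 3 of 17 probe sets were higher and 3 lower, in a comparison where 28.3% of all were called (16.2% higher and 12% lower) and the median of all probe sets was shifted by 0.08 (0.10 at 7 dpp). Dnmt1 1422946_a_at had 7.90, 7.88 and 7.84 in MSM against 7.16, 7.12 and 7.15 in B6 (log2 fold change 0.73, limma adjusted p = 2.05e-05), and Dnmt3b 1418351_a_at had 5.31, 5.30 and 5.41 against 4.41, 4.52 and 4.68 (0.80, limma adjusted p = 7.49e-05). The other probe sets of these genes did not pass: 0.03 and -0.05 for Dnmt1, and 0.30 for Dnmt3b (limma adjusted p = 0.00479). MSM males of 5 dpp also had general germ cell markers of 5.90 to 6.32, above the B6 range.

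The Tet2 probe sets opposed each other. In MSM at 5 dpp 1455300_at had 5.95, 6.02 and 5.87 against 5.15, 5.14 and 5.00 in B6, while 1438781_at had 4.92, 4.86 and 4.97 against 5.55, 5.68 and 5.57. The first was higher by 0.85 (adjusted p = 2.96e-05) and the second had -0.68 (adjusted p = 5.7e-05, both limma), so no direction was given for the gene. Tet1 1419896_at had 2.05, 1.90 and 1.67 in MSM, under the filter, against 3.76, 3.25 and 3.68 in B6 (-1.69, limma adjusted p = 3.08e-05), whereas Tet1 1455425_at had 0.21. Dnmt3a 1460324_at had -0.59 (limma adjusted p = 0.000203), and this call was lost without MSM 5 dpp replicate 3 or B6 5 dpp replicate 3. Bases that differ between MSM and the array probes of these genes were not examined, and probe binding and RNA level cannot be told apart where the probe sets of a gene disagree.

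By 7 dpp 0 of 17 probe sets passed between MSM and B6 (limma), with 12 at an unadjusted p under 0.05 and 17.3% of all called. Dnmt3b 1449052_a_at had 7.28, 7.31 and 7.18 in MSM, just under the B6 males, and 1418351_a_at was above them at 5.63, 5.92 and 5.89. Tet1 1419896_at was below the filter in both groups. Between the ages in MSM, 1 of 17 passed, beside 14.7% of all (7.08% lower): Tet2 1455300_at fell by 0.74 (limma adjusted p = 0.000156), from 5.95, 6.02 and 5.87 to 5.28, 5.13 and 5.22. Dnmt3b 1449052_a_at gained 0.56 (limma adjusted p = 0.00048), a 1.48-fold change and so under the limit. The MSM by age term was called for 1 of 18, Tet2 1455300_at (-0.70, limma adjusted p = 0.000231), beside 12% of all (6.3% below 0).

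**Figure D5:**
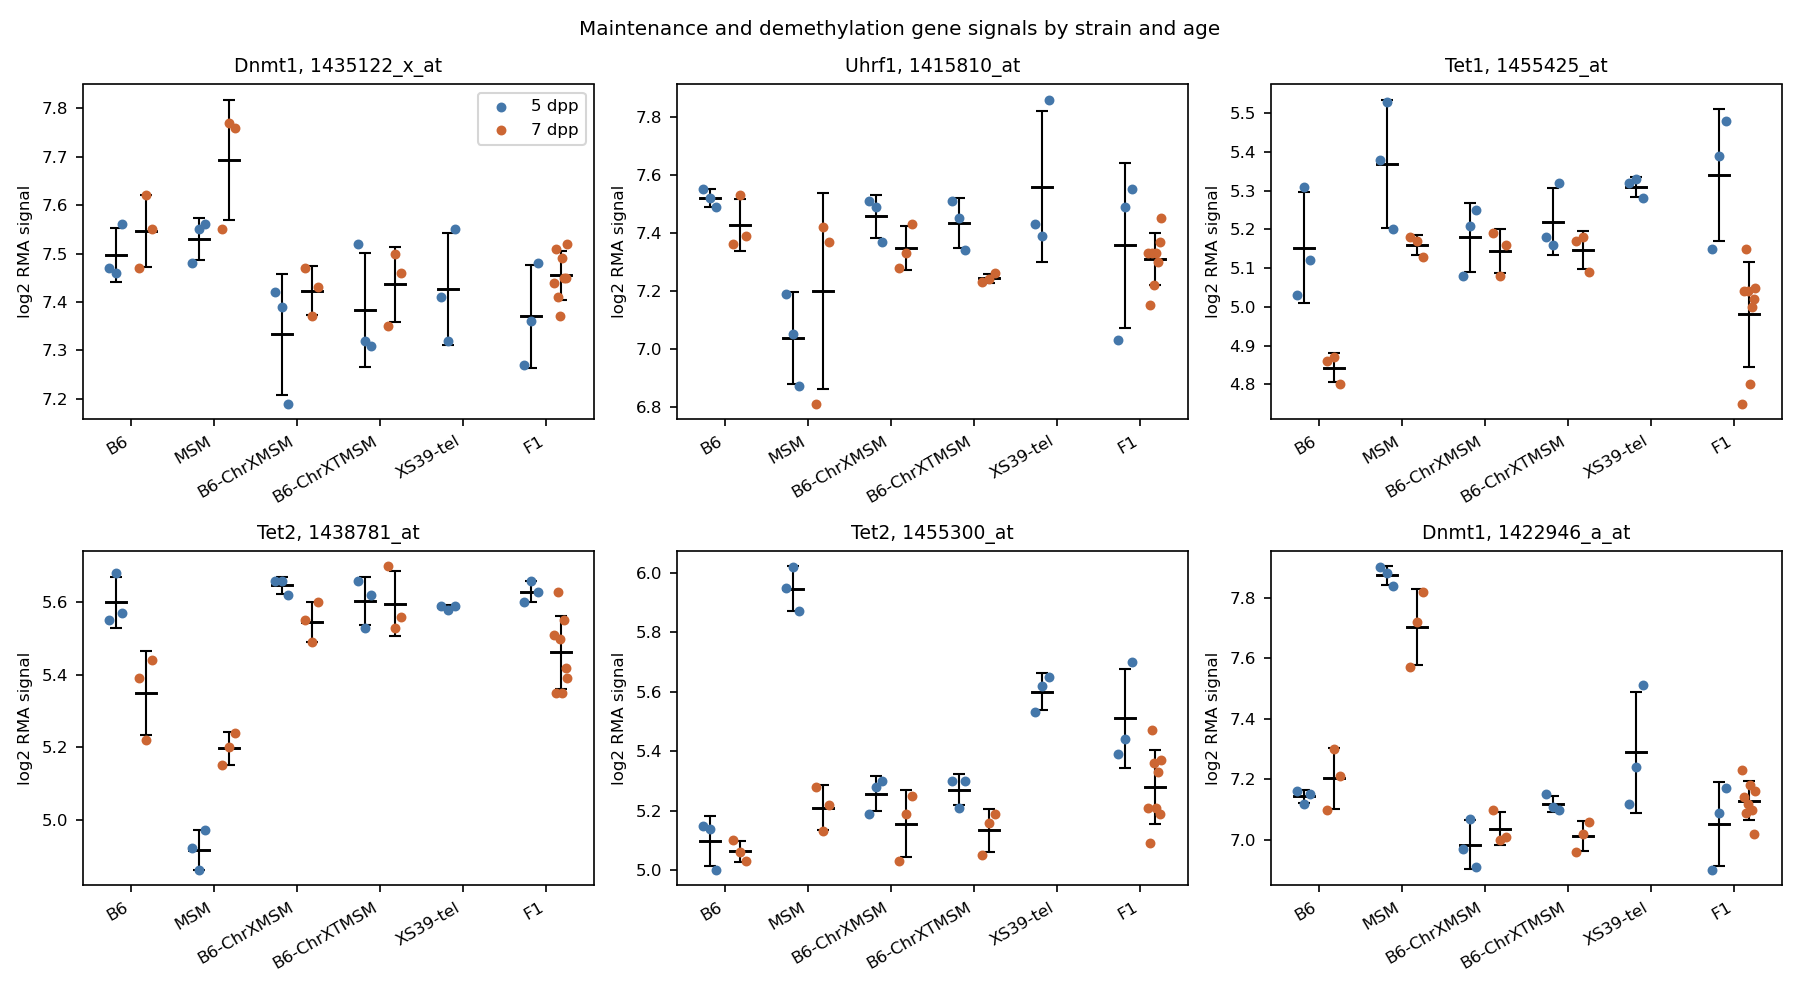
Log2 RMA signal of 6 probe sets of Dnmt1, Uhrf1, Tet1 and Tet2 by strain, drawn as in the plot of de novo methyltransferases, with vertical axes that differ between panels. Dnmt1 1422946_a_at, Uhrf1 1415810_at and the 2 Tet2 probe sets set MSM at 5 dpp apart from B6, the Tet2 probe sets in opposite directions. Group means of the other strains lie no farther from B6 of the same age than the 0.30 of Tet1 at 7 dpp. The exception is Tet2 1455300_at in XS39-tel and F1 at 5 dpp.

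Over all 11 groups, Dnmt3b 1449052_a_at was highest in B6 at 7 dpp (7.48 ± 0.09), then MSM at 7 dpp (7.26 ± 0.07), and these ranges did not overlap. Below them the ranges of neighbours overlapped down to F1 at 5 dpp (6.15 ± 0.02), and B6-ChrXMSM (5.86 ± 0.13) and XS39-tel (5.78 ± 0.15) at 5 dpp lay underneath, apart from it but overlapping each other. Among 10772 other genes the patterns most like it over the 11 group means were those of Hinfp and Pdcd7 (Pearson r = 0.99 each). For Dnmt1 they were Ruvbl1 and Gm2381 (both 0.97), for Dnmt3a 1423063_at E2f2 (0.97) and Lpp (0.90), for Dnmt3a 1423064_at Ppp2r1b and Exo1 (0.99 each), and for Uhrf1 Rbfox2 (0.90) and Slc8a1 (0.89). Tet1 was followed by Wnt4 and Ankrd50 (0.96 each), Tet2 by Prelid2 and 5031426D15Rik (0.99 each), and Tet3 by Itgbl1 (0.93) and B4galnt4 (0.92), most Tet3 points lying below the filter. All these coefficients come from the same 38 arrays and are descriptions.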

How the data were processed

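RNA from whole testes of individual males had been measured on Affymetrix mouse genome arrays. The log2 signals used were deposited by the authors, who made them with RMA in GeneSpring GX (versions not given in the sources used here), which corrects background, quantile-normalizes and summarises probes. Quantile normalization removes shifts shared by most probe sets of an array, and RMA compresses fold changes of dim probe sets. The deposited values entered the fits as they were.

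Probe sets were named through the platform annotation with updated symbols: 34958 named 1 gene (34728 of them with a known chromosome), 932 several, and 9211 no gene. On the X chromosome 233 of 1127 placed probe sets, which the study lists as polymorphic, were dropped, as were 651 on chromosome 1 in F1 comparisons. None reads any of the 8 genes. Groups came from the labels, which name biological replicates.

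Each comparison was its own lmFit and eBayes fit (limma 3.58.1, R 4.3.3, two-sided), restricted to probe sets whose mean passed the log2 of 10 in at least 1 of its groups. Strain by age terms used 4 groups. The number of arrays limits the precision. On simulated data for B6-ChrXMSM against B6 at 7 dpp, 46.3%, 91% and 97% of 1.5-, 2- and 4-fold changes were recovered, with 1 wrong call among 16835 probe sets. A change of exactly 1.5-fold sits on the calling limit, so its recovery was held down by that limit and does not measure precision. The simulation changed 200 probe sets, fewer than the 1041 called in the data, which alters the adjustment of p. Named genes were all 8 genes with every probe set. The 2 most alike genes were taken by Pearson correlation over group means. Dnmt3a 1423064_at was singled out after its values were seen. The genes, lists and markers were chosen with earlier results of these data known. Alternatives were no filter, array medians subtracted, 1 fit over all arrays, an intensity trend, the replicate number as a block, each male left out, and the mean over a gene's probe sets. Promoter sequences and starts are from RefSeq (GRCm38.p6), and 8 of 8 genes matched. Figures were drawn with matplotlib 3.10.9.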

Additional observations from a re-analysis of the deposited data

Results flagged for a closer look

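In 6 cases the change against B6 differed between 5 and 7 dpp by the limma test of the strain by age term. In B6-ChrXTMSM the term was -0.77 for Dnmt3a 1423064_at, -0.82 for Dnmt3b 1418351_a_at and -0.92 for Dnmt3b 1449052_a_at. In B6-ChrXMSM it was -0.65 for Dnmt3b 1418351_a_at and -0.59 for Dnmt3b 1449052_a_at. In MSM it was -0.70 for Tet2 1455300_at, while the other Tet2 probe set, 1438781_at, had 0.53. Among the F1 males of 7 dpp no single male stood apart from the other 7 for any of the 17 probe sets examined, with a highest Dixon ratio of 0.496 for Dnmt3a 1423063_at.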

How the results depend on the processing

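The 3 probe sets called at 7 dpp in B6-ChrXMSM and in B6-ChrXTMSM, in B6 between the ages and in the term of B6-ChrXTMSM by age stayed a count of 3 under every alternative run. With no filter on low signals the count among the 8 genes went from 2 to 0 in XS39-tel, from 0 to 1 in MSM against B6 at 7 dpp and from 2 to 1 in the term of B6-ChrXMSM by age. With array medians subtracted it was 1 in XS39-tel and 1 in the term of B6-ChrXMSM by age, and in 1 fit over all arrays that term had 0. Leaving out 1 male at a time gave 0 to 3 in XS39-tel, 0 to 1 in MSM against B6 at 7 dpp (1 without B6 7 dpp replicate 1), 1 to 2 in F1 between the ages, 1 to 2 in MSM between the ages, 0 to 2 in the term of B6-ChrXMSM by age and 1 to 2 in the term of MSM by age. The cause of these moves was not tested. Taken as the mean over both of its probe sets, Tet2 in MSM at 5 dpp lay 0.082 above B6, against -0.68 by the probe set of highest mean, since the probe sets oppose each other. Dnmt3a at 7 dpp likewise changed sign, from 0.09 to -0.19 in B6-ChrXMSM and from 0.13 to -0.25 in B6-ChrXTMSM. Dnmt3b stayed at -1.11 and -1.02 in these strains but went from -0.22 to 0.01 in MSM at 7 dpp. Further values of other genes and groups moved as well.

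Same-numbered males of 2 groups were not treated as pairs, since the labels give them only a number in common. The correlation of their deviations from the group means ran from -0.352 to 0.354. With groups this small, that cannot show whether same-numbered males shared a batch. With the replicate block the count was 0 in XS39-tel, 3 in F1 between the ages, and equal to the count without the block in the other comparisons where it was run.

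Counts over all probe sets, which stand behind the percentages, were less stable. Leaving out 1 male at a time moved them from 285 to between 147 and 366 in B6-ChrXMSM at 5 dpp, from 52 to between 19 and 92 in B6-ChrXTMSM at 5 dpp, from 111 to between 1 and 373 in XS39-tel, from 90 to between 15 and 129 in F1 at 5 dpp and from 287 to between 55 and 547 in F1 at 7 dpp. For F1 against B6-ChrXTMSM the 8 at 5 dpp became 1 to 24 and the 54 at 7 dpp 17 to 322, and the 934 in F1 between the ages became 419 to 1206. The terms by age went from 245 to between 147 and 326 in B6-ChrXMSM and from 2 to between 0 and 9 in F1. The other alternatives spanned 22 to 85 in B6-ChrXTMSM at 5 dpp, 0 to 348 in XS39-tel, 5 to 105 in F1 at 5 dpp, 42 to 508 in F1 at 7 dpp, and 2 to 31 and 58 to 308 for F1 against B6-ChrXTMSM at 5 and 7 dpp. In 1 fit over all arrays the 142 of B6-ChrXTMSM between the ages became 81, the 245 of B6-ChrXMSM by age 3 and the 903 of B6-ChrXTMSM by age 382, and with an intensity trend the 2 of F1 by age became 1.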
